A study of Mus musculus with 12 samples.

Results

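The report concerns 10 genes by which T cells and regulatory T cells are recognised: *Cd3d*, *Cd3e*, *Cd3g*, *Cd4*, *Cd8a*, *Cd8b1*, *Foxp3*, *Ctla4*, *Il1rl1* and *Klrg1*. They were chosen by symbol, with no measured value in the rule, and each matched 1 of the 49315 genes in the table of raw read counts. RNA was sequenced from the epididymal white adipose tissue (eWAT) of 12 male mice, age-matched and from shared litters, with 3 mice in each of 4 groups and 1 library per mouse. The KO mice were *Mir181a2b2*-/- and lacked the miRNA pair in the whole body. The flox mice were *Mir181a2b2* flox/flox, carried the floxed alleles without Cre and served as controls. For 12 weeks, mice of all 4 groups ate food with 60% fat, so there was no lean group, and each received weekly i.p. injections of vehicle (flox vehicle, KO vehicle) or of methotrexate at 1 mg/kg (flox MTX, KO MTX). The age and background strain of these mice are not given in the sources used here. The question was whether the deletion and MTX, alone or together, changed the T cell transcripts of obese fat.

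A T cell recognises antigen through a receptor of variable chains that cannot signal by themselves and rely on the CD3 chains, encoded by *Cd3d*, *Cd3e* and *Cd3g*, and on the zeta chain (*Cd247*). CD4, the coreceptor for MHC class II, marks helper and regulatory T cells, and CD8, a dimer of the products of *Cd8a* and *Cd8b1* on most cytotoxic T cells, binds MHC class I. Regulatory T cells are set by the transcription factor Foxp3 and restrain other T cells, in part with Ctla4, which competes with Cd28 for Cd80 and Cd86. Visceral fat of lean mice is known for an unusual regulatory T cell that depends on Pparg and carries ST2, the receptor for IL-33 encoded by *Il1rl1*, and often Klrg1, an inhibitory receptor for cadherins. *Il1rl1* is also expressed in mast cells and type 2 innate lymphoid cells, and *Klrg1* in NK cells and effector CD8 T cells, so neither gene belongs to T cells alone.

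The 3 CD3 genes lie side by side on chromosome 9 (GRCm38, GENCODE M21): *Cd3g* (ENSMUSG00000002033) at 44969572 to 44980431 on the minus strand, *Cd3d* (ENSMUSG00000032094) at 44981786 to 44987339 on the plus strand and *Cd3e* (ENSMUSG00000032093) at 44998740 to 45009627 on the minus strand. The starts of *Cd3d* and *Cd3g* are 1355 bases apart and face away from each other, and the RefSeq start of *Cd3e* is 27825 bases from that of *Cd3d*. Their promoters are shown because the 3 transcripts varied alike across libraries, and both promoters of *Il1rl1* because its level followed another pattern. Each window runs from 250 bases before to 50 bases after a RefSeq start, which is base 251 of the 300, on the strand of the gene (build GRCm38.p6). Capitals mark matches, on either strand, to 5 short motifs: the Runx core TGTGGT, the ETS core CAGGAA, the E-box CAGCTG, which is its own reverse complement, the GATA motif AGATAA and the TATA box TATAAA.
Cd3d, chr9:44981536-44981835, plus strand: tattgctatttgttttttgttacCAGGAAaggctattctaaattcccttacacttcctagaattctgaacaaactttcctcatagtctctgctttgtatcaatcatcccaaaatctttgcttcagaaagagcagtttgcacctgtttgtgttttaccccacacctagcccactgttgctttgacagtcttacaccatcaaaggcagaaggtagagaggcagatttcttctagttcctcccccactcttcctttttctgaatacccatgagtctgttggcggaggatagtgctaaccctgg
Cd3g, chr9:44980382-44980681, minus strand: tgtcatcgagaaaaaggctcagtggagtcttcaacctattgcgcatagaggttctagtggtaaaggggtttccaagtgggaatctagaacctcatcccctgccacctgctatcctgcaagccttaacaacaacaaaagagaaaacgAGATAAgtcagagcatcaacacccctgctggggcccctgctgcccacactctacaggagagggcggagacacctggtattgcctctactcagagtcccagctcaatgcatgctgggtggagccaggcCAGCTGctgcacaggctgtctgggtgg
Cd3e, chr9:45009562-45009861, minus strand: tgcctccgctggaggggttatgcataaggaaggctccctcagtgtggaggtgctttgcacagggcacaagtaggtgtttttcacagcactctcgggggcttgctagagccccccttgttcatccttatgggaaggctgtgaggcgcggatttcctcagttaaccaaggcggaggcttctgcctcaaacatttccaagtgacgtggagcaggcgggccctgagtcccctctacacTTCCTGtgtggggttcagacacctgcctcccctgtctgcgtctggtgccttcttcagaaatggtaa
Il1rl1, first start, chr1:40429320-40429619, plus strand: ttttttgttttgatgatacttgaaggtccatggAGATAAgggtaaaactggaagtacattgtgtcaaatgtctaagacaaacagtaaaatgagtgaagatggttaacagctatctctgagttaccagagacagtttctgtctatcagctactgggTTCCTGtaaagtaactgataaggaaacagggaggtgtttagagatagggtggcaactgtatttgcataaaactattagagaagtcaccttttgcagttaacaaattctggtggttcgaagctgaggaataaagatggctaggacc
Il1rl1, second start, chr1:40439379-40439678, plus strand: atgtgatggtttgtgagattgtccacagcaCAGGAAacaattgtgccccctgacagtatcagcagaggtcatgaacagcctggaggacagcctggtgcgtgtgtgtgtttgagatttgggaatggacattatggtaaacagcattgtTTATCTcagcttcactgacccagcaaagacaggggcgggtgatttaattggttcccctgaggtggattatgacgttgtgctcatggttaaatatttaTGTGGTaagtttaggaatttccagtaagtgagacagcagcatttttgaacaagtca

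The ETS core stood in *Cd3d* at bases 24 to 29 and, as its reverse complement, in *Cd3e* at bases 235 to 240, just before the start. *Cd3g* held the GATA letters at bases 147 to 152 and the E-box at bases 274 to 279, after the start. Both *Il1rl1* windows, whose starts are 10059 bases apart, held the ETS and the GATA letters, and the second also held the Runx core at bases 245 to 250, directly before the start. No matches overlapped in the printed windows. Of all 32851 promoters of the same length, 30.6% held the ETS core, 11.2% the GATA motif, 16.3% the E-box, 16.8% the Runx core and 13.6% the TATA box, so a match describes the letters and is not a binding site. RefSeq windows were at hand for 7 of the 10 genes, the others being *Cd8a* with an E-box across its start, *Foxp3* with 2 starts and *Ctla4*, and not for *Cd4*, *Cd8b1* and *Klrg1*.

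Libraries held 19495310 to 23976469 counted reads. Levels are given in CPM, the count divided by the library total after TMM scaling. A count of 0 would allow up to 3 counts, or 0.125 to 0.154 CPM before that scaling (counting error only). Differences come from edgeR's quasi-likelihood test over the 18702 genes that passed its filter on low counts, all 10 genes among them, and calls needed both an adjusted p (Benjamini-Hochberg) under 0.1 and a change of 1.5-fold or more. The deletion could not be checked, since Mir181a-2 had 2 counts in all, both in flox MTX replicate 4, and Mir181b-2 had 0. Fat markers were abundant in every library (10 adipocyte genes, together 10189 to 51028 CPM). Libraries stood apart in 2 ways. In flox vehicle replicates 1, 3 and 4, 18 epididymis genes summed to 4738, 13076 and 1535 CPM, against 510 CPM in flox MTX replicate 1 and at most 20.1 CPM elsewhere, and 10 testis germ cell genes to 601, 473 and 208 CPM against at most 12.4 CPM. In flox MTX replicate 2 and KO MTX replicate 3, 10 B cell genes summed to 505 and 429 CPM, against at most 196 CPM in the other 10 libraries.

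All 10 genes were detected in every library, at 3 to 596 counts. Per kilobase of exon, *Il1rl1* had the highest mean level over the 12 libraries (1.61 CPM per kb). *Cd3d* (1.38), *Cd8b1* (1.13), *Cd3g* (1.12), *Cd4* (0.988), *Cd3e* (0.986) and *Cd8a* (0.884) followed in the same unit. *Ctla4* (0.418), *Klrg1* (0.340) and *Foxp3* (0.197) were the least abundant per kb. Between adjacent genes of this order the gaps were small beside the variation of each gene, whose highest library exceeded its lowest by 7.63-fold (*Il1rl1*) to 21.7-fold (*Ctla4*). Flox MTX replicate 2 was the highest library for 9 genes, all but *Il1rl1*, and KO MTX replicate 3 was among the 2 highest for 9, all but *Klrg1*. Flox vehicle replicate 3, which held the most epididymis RNA, was the lowest library for 8 genes. In bulk tissue, fewer T cells and less T cell RNA per cell cannot be told apart.

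**Figure D1:**
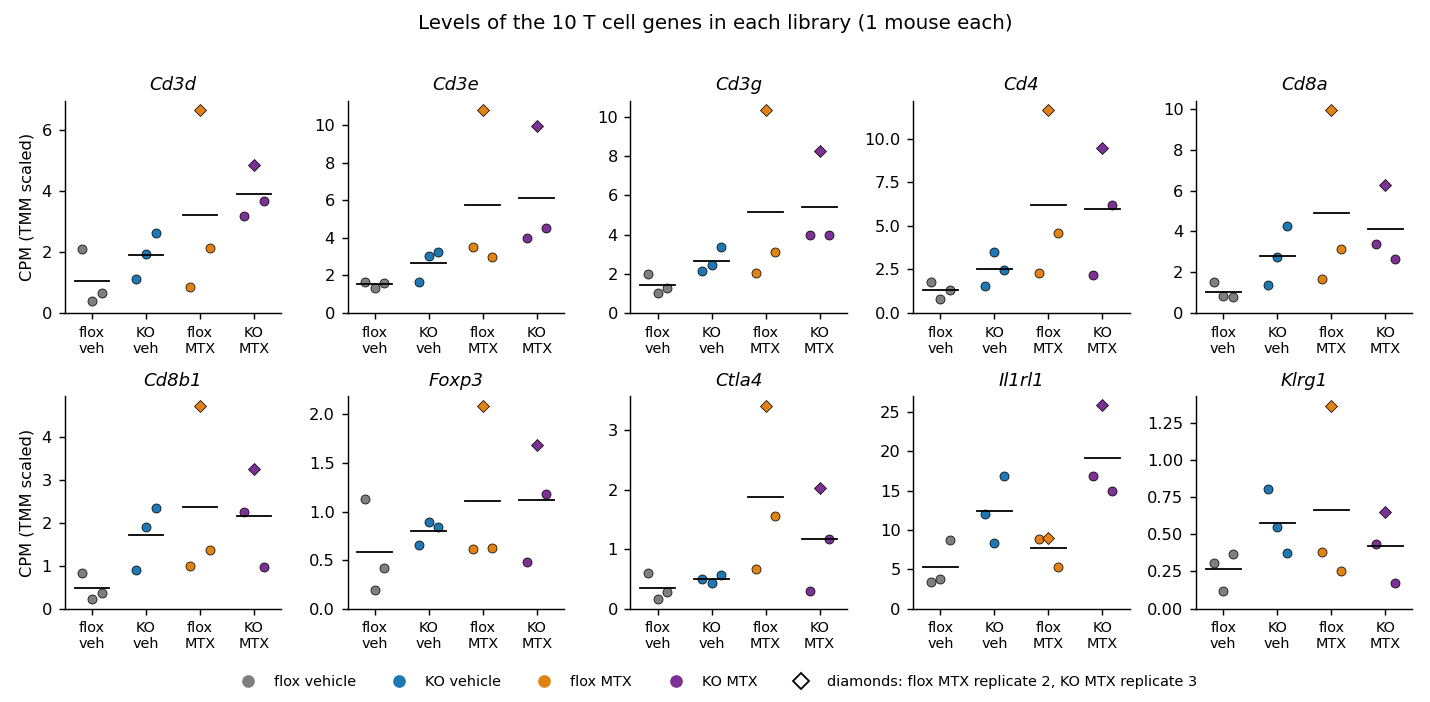
CPM of the 10 genes (y axes, each from 0) in every library by group (x axes), with 1 point per mouse and a bar at the mean of 3. Diamonds are flox MTX replicate 2 and KO MTX replicate 3, which stand above the other libraries in most panels, whereas *Il1rl1* is highest in the KO groups, at 8.30 to 25.8 CPM.

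The CD3 chains were lowest in flox vehicle fat and highest in the MTX groups. *Cd3e*, the chain on which the surface receptor is assembled, measured 1.65, 1.34 and 1.62 CPM in flox vehicle fat (replicates 1, 3 and 4) and 1.66, 3.05 and 3.23 CPM in KO vehicle replicates 1, 2 and 3. It stood at 3.50, 10.8 and 3.0 CPM in flox MTX replicates 1, 2 and 4 and at 4.0, 9.92 and 4.50 CPM in KO MTX replicates 2, 3 and 4. Within each genotype every MTX library was above every vehicle library, with the nearest pair at 3.0 and 1.65 CPM in flox and at 4.0 and 3.23 CPM in KO mice. With the libraries in the same order, *Cd3g* measured 2.0, 1.02 and 1.29 CPM, then 2.17, 2.46 and 3.37 CPM, then 2.03, 10.4 and 3.13 CPM, and in KO MTX fat 4.0, 8.28 and 3.98 CPM. *Cd3d* measured 2.08, 0.393 and 0.646 CPM, then 1.11, 1.95 and 2.62 CPM, then 0.850, 6.64 and 2.13 CPM, and in KO MTX fat 3.18, 4.85 and 3.67 CPM. For all 3 genes flox MTX replicate 2 was the highest library and flox vehicle replicate 3 the lowest, and in KO mice no MTX library overlapped a vehicle library for any of them.
Under MTX in flox mice, *Cd3e* rose by 1.91 ± 0.54 (log2 fold change ± SE, adjusted p = 0.0321, edgeR) and *Cd3g* by 1.85 ± 0.58 (adjusted p = 0.0473). *Cd3d* had a log2 fold change of 1.62 ± 0.74 and an adjusted p of 0.148, with flox MTX replicate 1 inside the vehicle range. In KO mice the 3 estimates were smaller, at 1.21 ± 0.52 for *Cd3e*, 1.02 ± 0.56 for *Cd3g* and 1.04 ± 0.72 for *Cd3d*, with adjusted p from 0.594 to 0.777. Between the genotypes under vehicle they were 0.79 ± 0.53, 0.89 ± 0.58 and 0.86 ± 0.74 (edgeR adjusted p = 0.290, 0.270 and 0.410), and under MTX 0.09 ± 0.51, 0.06 ± 0.55 and 0.28 ± 0.71, each within 1 SE of 0.

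The coreceptors followed the CD3 chains. *Cd4* (ENSMUSG00000023274, chromosome 6, 124864692 to 124888221) stood at 1.78, 0.826 and 1.29 CPM in flox vehicle fat and at 1.56, 3.52 and 2.48 CPM in KO vehicle fat. It reached 2.31, 11.6 and 4.56 CPM in flox MTX fat and 2.17, 9.45 and 6.21 CPM in KO MTX fat. KO MTX replicate 2 thus sat within the KO vehicle range, and the flox groups did not overlap. *Cd8a* (ENSMUSG00000053977, chromosome 6, 71373427 to 71379173) stood at 1.52, 0.826 and 0.785 CPM, then at 1.36, 2.75 and 4.26 CPM, then at 1.65, 9.95 and 3.13 CPM, and in KO MTX fat at 3.39, 6.28 and 2.67 CPM. Its neighbour *Cd8b1* (ENSMUSG00000053044, 71322788 to 71337494) stood at 0.824, 0.236 and 0.369 CPM, then at 0.907, 1.91 and 2.34 CPM, then at 0.992, 4.73 and 1.38 CPM, and in KO MTX fat at 2.26, 3.25 and 0.961 CPM. For both CD8 genes the flox MTX libraries lay above the flox vehicle ones, and for *Cd8b1* also the KO vehicle libraries, with the nearest pair at 0.824 and 0.907 CPM.
Under MTX in flox mice, *Cd4* rose by 2.25 ± 0.66 (log2, adjusted p = 0.0378, edgeR), *Cd8a* by 2.23 ± 0.68 (adjusted p = 0.0411) and *Cd8b1* by 2.31 ± 0.73 (adjusted p = 0.0479). In KO mice the same differences were 1.23 ± 0.64, 0.56 ± 0.64 and 0.32 ± 0.67, with adjusted p from 0.672 to 0.942. *Cd8b1* was also higher in KO than in flox mice under vehicle, by 1.85 ± 0.73 (edgeR adjusted p = 0.0786), whereas *Cd8a*, its partner in the dimer, had 1.42 ± 0.67 (adjusted p = 0.134) and *Cd4* 0.96 ± 0.65 (adjusted p = 0.295). Under MTX the genotypes differed by -0.06 ± 0.62 for *Cd4*, -0.26 ± 0.63 for *Cd8a* and -0.14 ± 0.67 for *Cd8b1*, and the sign of each turned when flox MTX replicate 2 was left out.

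*Foxp3* was not called in any comparison, and *Ctla4* was higher under MTX in flox mice. *Foxp3* (ENSMUSG00000039521, chromosome X, 7573644 to 7595245) stood at 1.13, 0.197 and 0.416 CPM in flox vehicle fat and at 0.655, 0.889 and 0.844 CPM in KO vehicle fat. In the MTX groups it stood at 0.614, 2.09 and 0.625 CPM in flox mice and at 0.478, 1.69 and 1.18 CPM in KO mice. All 4 groups overlapped, and 5 to 46 counts stood behind each value. *Foxp3* shares 853 exon bases with *Flicr* on its own strand and 266, 590 and 373 with *Ppp1r3f*, *Ccdc22* and *Gm36995* on the other, and how reads in shared exons were counted is not stated, so its values are uncertain. *Ctla4* (ENSMUSG00000026011, chromosome 1, 60887000 to 60915832) stood at 0.607, 0.157 and 0.277 CPM, then at 0.504, 0.423 and 0.562 CPM, then at 0.661, 3.41 and 1.56 CPM, and in KO MTX fat at 0.304, 2.04 and 1.18 CPM. Its flox MTX libraries lay above all flox vehicle libraries, with the nearest pair at 0.661 and 0.607 CPM, and its KO groups overlapped.
*Ctla4* rose under MTX in flox mice by 2.43 ± 0.76 (log2, edgeR, adjusted p = 0.0474), and *Foxp3* had 0.95 ± 0.69 (adjusted p = 0.362) in the same comparison. In KO mice the estimates were 1.23 ± 0.74 for *Ctla4* and 0.48 ± 0.68 for *Foxp3* (edgeR adjusted p = 0.734 and 0.898). Between the genotypes under vehicle *Foxp3* differed by 0.46 ± 0.70 and *Ctla4* by 0.51 ± 0.79 (edgeR adjusted p = 0.657 and 0.661). Under MTX they differed by -0.01 ± 0.66 and -0.68 ± 0.70 (edgeR adjusted p = 0.998 and 0.570).

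*Il1rl1* (ENSMUSG00000026069, chromosome 1, 40429570 to 40465415) was higher in KO than in flox mice under vehicle and was not called for MTX in either genotype. It stood at 3.38, 3.74 and 8.73 CPM in flox vehicle fat and at 12.0, 8.30 and 16.8 CPM in KO vehicle fat. It stood at 8.79, 8.91 and 5.31 CPM in flox MTX fat and at 16.8, 25.8 and 14.9 CPM in KO MTX fat. Under MTX every KO library was above every flox library, and under vehicle flox vehicle replicate 4 was above KO vehicle replicate 2. The KO to flox difference was 1.23 ± 0.41 (log2) under vehicle (adjusted p = 0.0421, edgeR), and 1.32 ± 0.40 under MTX, where it reached an unadjusted p of 0.00738 and an adjusted p of 0.114. The effect of MTX was 0.54 ± 0.40 in flox and 0.63 ± 0.40 in KO mice (edgeR adjusted p = 0.370 and 0.744). The gene makes a receptor anchored in the membrane and a soluble form, and counts per gene do not separate them.
Mast cell markers were higher in KO mice under vehicle as well. The 10 mast cell genes summed to 29.5 to 39.9 CPM in flox vehicle, 87.3 to 139 CPM in KO vehicle, 26.6 to 66.3 CPM in flox MTX and 70.8 to 399 CPM in KO MTX libraries, and 7 of them were called higher in KO than in flox mice under vehicle. KO MTX replicate 3 had both the highest mast cell sum and the highest *Il1rl1*. The 8 type 2 innate lymphoid cell genes summed to 56.2 to 81.4 CPM in flox vehicle and 72.1 to 87.8 CPM in KO vehicle libraries (1 of 6 tested called lower and none higher), with *Il5* and *Il13* at no more than 0.42 CPM anywhere. Their part in the level of *Il1rl1* was not tested. *Il33* itself was called higher under MTX in flox mice (1.51 ± 0.50, edgeR adjusted p = 0.0559), and *Il1rap*, the partner chain of the receptor, was called higher in KO than in flox mice under vehicle (0.77 ± 0.28, edgeR adjusted p = 0.0579).

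*Klrg1* (ENSMUSG00000030114, chromosome 6, 122270596 to 122282882) had the fewest reads of the 10 genes, 126 counts over all libraries. It stood at 0.304, 0.118 and 0.369 CPM in flox vehicle fat and at 0.806, 0.551 and 0.375 CPM in KO vehicle fat, with 3 to 16 counts behind these values. It stood at 0.378, 1.36 and 0.250 CPM in flox MTX fat and at 0.435, 0.650 and 0.175 CPM in KO MTX fat. The vehicle groups did not overlap, with the nearest pair at 0.369 and 0.375 CPM, and the groups of the other comparisons did. Its log2 fold change was 1.13 ± 0.72 between the genotypes under vehicle, -0.68 ± 0.68 under MTX, 1.36 ± 0.72 for MTX in flox mice and -0.45 ± 0.69 for MTX in KO mice, with adjusted p from 0.207 to 0.911 (edgeR). Its 3 cadherin ligands were all called lower in KO than in flox mice under vehicle, *Cdh1* at -6.13 ± 1.31, *Cdh4* at -2.07 ± 0.53 and *Cdh2* at -1.05 ± 0.38. *Cdh1* stood at 65.9, 166 and 33.5 CPM in flox vehicle libraries and at 0.0874 to 7.94 CPM in the other 9. The 4 libraries with the most *Cdh1*, an epithelial gene, were the 4 with the highest epididymis sums, and the part of that RNA in the difference was not tested.

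Between KO and flox mice under vehicle, 2 of the 10 genes were called, both higher in KO mice, *Cd8b1* and *Il1rl1*, beside 13.9% of all genes tested called higher, 17.8% called lower and 31.7% called either way. The same 2 had an unadjusted p below 0.05, beside 41.0% of all genes. All 10 log2 fold changes were above 0, with a median of 0.92 against -0.06 over all genes. The groups did not overlap for 4 genes (*Cd3e*, *Cd3g*, *Cd8b1* and *Klrg1*), all higher in KO mice, beside 22.8% of all genes higher, 25.3% lower and 48.1% either way. Without flox vehicle replicate 3, or without KO vehicle replicate 3, 0 genes were called, beside 25.4% and 23.7% of all genes either way. Leaving out flox vehicle replicate 1 or 4 or KO vehicle replicate 2 gave 1 call, beside 27.2%, 33.9% and 28.2%. Leaving out KO vehicle replicate 1 or flox MTX replicate 1 or 2 gave 3, beside 29.0%, 32.9% and 35.0%. Flox MTX replicate 2 and KO MTX replicate 3 are not in this comparison but enter the estimate of the spread. Without both, 5 genes were called (*Cd3e*, *Cd3g*, *Cd8a*, *Cd8b1* and *Il1rl1*), beside 35.1% of all genes. Without flox vehicle replicates 1 and 3, which held the most epididymis RNA, the log2 fold change was 0.51 for *Il1rl1* and a larger one, 2.21, for *Cd8b1*. That fit has 1 flox vehicle library, assumed to vary like the other groups. Macrophage markers were also higher in KO mice, with 12 of 12 called, at 536 to 1107 CPM in flox and 4174 to 6884 CPM in KO libraries. Of 10 B cell markers 0 were called, with a median of 0.32, and of 10 NK cell markers 4 were called higher. The part of these cells and of epididymis RNA in the T cell values was not tested.

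Counts of called genes in the lists that follow stand beside the same 13.9% of all genes called higher and 17.8% called lower. Of 20 receptor and proximal signaling genes, 8 were called higher and 1 lower in KO mice under vehicle, with a median of 0.75. They included *Trac* (1.64 ± 0.40, edgeR adjusted p = 0.0108), the constant gene of the alpha chain, *Themis* (2.16 ± 0.47, adjusted p = 0.00669), a thymocyte signaling factor, and *Fyb* (2.66 ± 0.56, adjusted p = 0.00615), an adaptor that myeloid cells express as well. The gene called lower was the adaptor *Skap1*, at 37.3 CPM in flox vehicle replicate 3 and 0.806 to 2.11 CPM in KO vehicle libraries. Of 6 gamma-delta T cell genes tested, 3 were called higher, the constant genes *Tcrg-C1*, *Tcrg-C2* and *Tcrg-C4* (1.30 to 1.82). Of 13 cytotoxic effector genes tested, 5 were called higher with a median of 1.18, among them *Ccl5* (1.55 ± 0.44), a chemokine, *Nkg7* (1.46 ± 0.45), a granule protein, and *Fasl* (1.94 ± 0.58), a death ligand. In 10 naive and central memory genes, *Il7r* (3.63) and *S1pr1* (1.24) were called higher and *Satb1* (-2.16) and *Lef1* (-1.40) lower. *Satb1* and *Lef1* were each highest in flox vehicle replicate 3, at 51.6 and 3.82 CPM. *S1pr1* is abundant in endothelium, and 7 of 8 endothelial markers were called higher as well.

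Lists built around regulatory T cells were led by genes that other cells express too. Of 11 regulatory T cell genes tested, 6 were called higher and 2 lower in KO mice under vehicle (median 1.33), with *Il10* (3.08 ± 0.62), an anti-inflammatory cytokine of macrophages as well, *Ebi3* (1.93 ± 0.50), a cytokine subunit, and *Lrrc32* (1.62 ± 0.28), which anchors latent TGF-beta, among the higher ones. *Ikzf2*, the regulatory T cell factor Helios, was called lower (-1.61 ± 0.38). Its highest level, 21.5 CPM, was in flox vehicle replicate 3, the library with the most epididymis RNA. The surface receptor *Gpr83* was at 0 in 6 libraries and did not pass the filter. Among 10 genes of the fat regulatory T cell, *Batf* (1.86), *Nfil3* (0.82) and *Il1rap* were called higher and *Gata3* (-3.54) lower, at 38.4 CPM in flox vehicle replicate 3 against 1.44 to 3.21 CPM in the 9 libraries of the other groups. *Pparg*, an adipocyte gene in this tissue, was not called. The ligands *Cd80* (1.75 ± 0.43) and *Cd86* (1.51 ± 0.37), through which Ctla4 acts, were both called higher, with *Icosl* (0.78 ± 0.32), in a list of 5. Of 11 costimulation and checkpoint genes tested, *Havcr2* alone was called (3.18 ± 0.40), a receptor that macrophages carry as well. Of 10 genes of IL-2 and the common gamma chain cytokines, 5 were called higher, with the receptor chains *Il2rb* (1.46 ± 0.52) and *Il2rg* (1.27 ± 0.34) among them, and 1 lower, *Stat5a* (-1.28 ± 0.22). Of 7 helper lineage genes tested, *Tbx21*, the factor of type 1 helper cells, was called higher (1.36 ± 0.52), and 2 were called lower, *Gata3* among them. Leaving out flox vehicle replicates 1 and 3 leaves 1 flox vehicle library, too few to judge calls. The receptor, gamma-delta, cytotoxic and regulatory T cell lists then had medians of 1.02, 0.85, 1.52 and 1.35.

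Under MTX the genotypes did not differ in any call: 0 of the 10 genes passed, beside 0.0% of all genes tested. At an unadjusted p below 0.05 there was 1, *Il1rl1*, beside 24.5% of all genes, and DESeq2 called the same gene, beside 16.6%. The groups did not overlap for 1 gene, *Il1rl1*, higher in KO mice, beside 14.7% of all genes higher, 12.1% lower and 26.8% either way. The median log2 fold change was -0.03, with 4 of 10 above 0, and -0.05 over all genes. The sign of each of the 9 genes other than *Il1rl1* turned when flox MTX replicate 2 or another single library was left out. Without flox MTX replicate 2, *Il1rl1* was called (1.44, edgeR adjusted p = 0.0667), beside 20.8% of all genes. Mast cell and macrophage markers lay above 0 in 10 of 10 and 12 of 12 genes (medians 2.21 and 1.29), without a call, and no gene of any list was called.

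MTX in flox mice gave the largest number of calls: 6 of the 10 genes were higher, beside 8.09% of all genes called higher, 16.1% called lower and 24.2% called either way. They were *Cd3e*, *Cd3g*, *Cd4*, *Cd8a*, *Cd8b1* and *Ctla4*, and the same 6 were the genes with an unadjusted p below 0.05, beside 34.2% of all genes. They were also the genes whose groups did not overlap, beside 10.9% of all genes higher, 17.5% lower and 28.3% either way. The median log2 fold change was 1.88, against 0.05 over all genes. Without flox MTX replicate 2, 0 genes were called, beside 24.0% of all genes called either way. The 6 log2 fold changes were then 0.85 for *Cd3g*, 1.09 for *Cd3e*, 1.20 for *Cd8a*, 1.31 for *Cd8b1*, 1.41 for *Cd4* and 1.67 for *Ctla4*. Without that library and KO MTX replicate 3, *Cd3e* alone was called (edgeR adjusted p = 0.0561), beside 24.2% of all genes. Without flox vehicle replicate 3 there were 0 calls, beside 11.7% of all genes, with the 6 log2 fold changes between 1.65 and 2.09. Without flox vehicle replicates 1 and 3, the 6 log2 fold changes were between 1.84 and 2.74. They then rest on 1 flox vehicle library, with no spread between mice in that group, and do not show that the calls hold. Flox vehicle mice are the control group of this comparison and of the genotype comparison under vehicle, so the 2 share those 3 libraries.

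The 2 MTX libraries that were highest in T cell genes were also highest in markers of lymphoid tissue. Of 10 B cell genes, 7 were called higher under MTX in flox mice (median 2.62), and the summed B cell level was 38.6, 505 and 196 CPM in flox MTX replicates 1, 2 and 4. The 7 lymph node stroma genes reached 28.1, 140 and 98.0 CPM there, as a sum, 31.6, 120 and 54.7 CPM in KO MTX replicates 2, 3 and 4 and 4.41 to 24.8 CPM in the vehicle libraries. *Cxcl13*, the B cell follicle chemokine, stood at 94.2 CPM in flox MTX replicate 2 and 68.2 CPM in KO MTX replicate 3. *Glycam1*, of lymph node venules, was at 0 in 9 libraries, flox MTX replicate 2 among them. Its highest level, 1.30 CPM, was in KO MTX replicate 3. Summed over *Cd3d*, *Cd3e* and *Cd3g*, the level was 6.38, 27.8 and 8.25 CPM in flox MTX replicates 1, 2 and 4 and 11.2, 23.1 and 12.1 CPM in KO MTX replicates 2, 3 and 4, against 2.75 to 5.73 CPM in flox vehicle and 4.94 to 9.23 CPM in KO vehicle libraries. The part of lymphoid tissue in these levels was not tested.

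**Figure D2:**
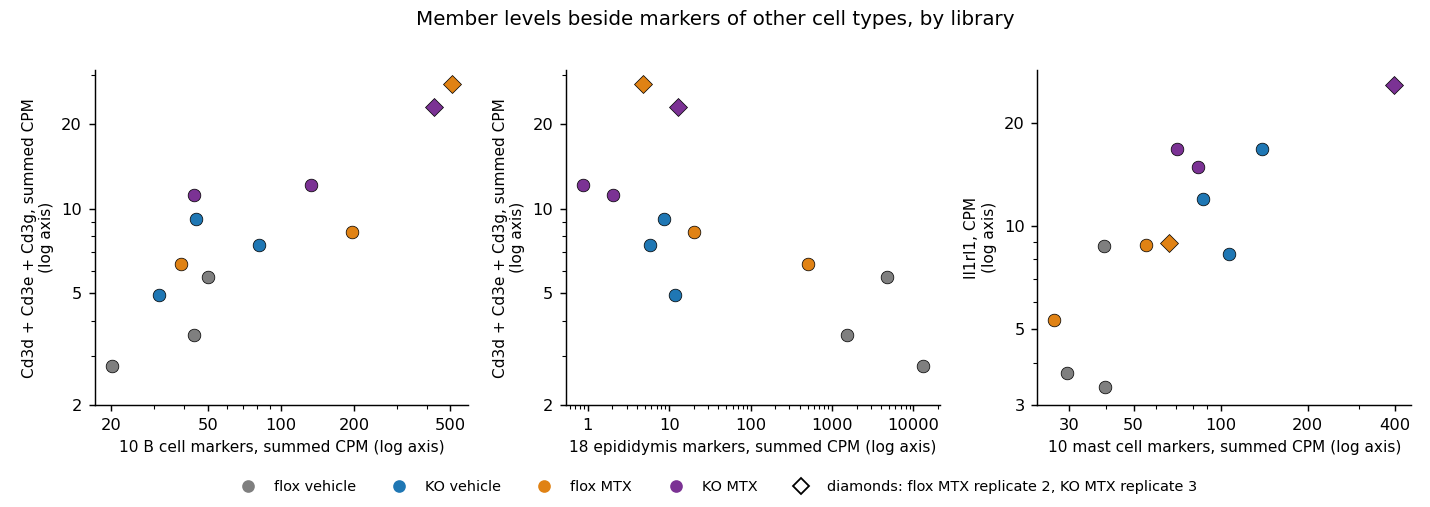
Summed CPM of *Cd3d*, *Cd3e* and *Cd3g* against summed CPM of 10 B cell markers (left) and 18 epididymis markers (middle), and *Il1rl1* CPM against 10 mast cell markers (right), on log axes with 1 point per library. The diamonds, flox MTX replicate 2 and KO MTX replicate 3, lie at 27.8 and 23.1 CPM of CD3 and at 505 and 429 CPM of B cell genes, and the 3 flox vehicle libraries lie at the right of the middle panel.

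In other T cell lists most calls under MTX in flox mice were in the higher direction, beside 8.09% of all genes called higher. Of 20 receptor and signaling genes, 11 were called higher and 1 lower (median 1.74), among them *Trbc1* (2.33 ± 0.50, edgeR adjusted p = 0.0113), a constant gene of the beta chain, *Themis* (2.33 ± 0.47) and *Sh2d1a* (3.16 ± 0.85), the adaptor SAP of follicular help. Of 6 gamma-delta genes tested, 5 were called higher and 1 lower (median 2.25), led by *Tcrg-C4* (3.21 ± 0.59) and *Tcrg-C1* (2.60 ± 0.46). The 5 included *Blk* (2.35 ± 0.80), which is also in the B cell list. Costimulation and checkpoint genes had 5 of 11 higher, with *Btla* (2.96 ± 0.91), *Cd69* (2.74 ± 0.76), *Pdcd1* (2.49 ± 0.83) and *Icos* (1.83 ± 0.63) among them. *Btla* and *Cd69* are also expressed by B cells. Cytotoxic effector genes had 10 of 13 higher (median 1.78), with the granule inhibitor *Cst7* (2.84 ± 0.74), the homing receptor *Cxcr6* (2.20 ± 0.48) and *Prf1* (2.15 ± 0.60), the pore protein perforin. In the naive and central memory list, 4 of 10 were higher and none lower, with *Il7r* (2.24 ± 0.54), *Ccr7* (2.07 ± 0.61) and *Bach2* (1.41 ± 0.53) among them.
Regulatory T cell genes had 4 of 11 higher, *Il10* (2.02 ± 0.63), *Il2rb* (1.67 ± 0.52), *Ebi3* (1.25 ± 0.49) and *Entpd1* (0.65 ± 0.25), beside *Foxp3*, which was not called. In the fat regulatory T cell list, *Batf* (1.98 ± 0.37), *Irf4* (1.58 ± 0.48) and *Nfil3* (0.92 ± 0.29) were among 4 higher and *Gata3* (-2.98 ± 0.52) was lower. Helper lineage factors split, with *Tbx21* higher (1.65 ± 0.52) and 2 lower, *Gata3* among them, in 7 genes tested, and the cytokine *Il17a* was at 0 in 11 libraries. Genes of the common gamma chain cytokines had 3 of 10 higher, among them *Il2rg* (1.57 ± 0.34) and *Il7r*, and *Il15ra* lower (-0.86 ± 0.18). In the IL-33 list 3 of 5 were higher, the stromal gene *Cdh11* (2.15 ± 0.51), the mesothelial gene *Msln* (1.78 ± 0.43) and *Il33*. Without flox MTX replicate 2 the calls higher became 5 of 20 in the receptor list (median 0.79), 3 of 6 in the gamma-delta list (1.43), 5 of 13 in the cytotoxic list (1.10), 1 of 12 in the costimulation list (0.66), 1 of 10 in the naive list (0.15) and 1 of 11 in the regulatory T cell list (0.54), beside 6.42% of all genes. Without flox vehicle replicate 3 they became 5, 3, 4, 1, 1 and 0, with medians of 1.45, 2.16, 1.63, 1.33, 0.68 and 0.67, beside 2.03% of all genes. NK cell markers had 3 of 10 higher (median 1.15) and summed to no more than 17.9 CPM in any library. All 12 macrophage markers were called higher in the same comparison (median 2.09), as were 6 of 8 mesothelium markers. Macrophage sums were 3005, 5521 and 975 CPM in flox MTX replicates 1, 2 and 4, the last within the flox vehicle range of 536 to 1107 CPM. In the same comparison 8 of 10 epididymis and 10 of 10 testis germ cell genes tested were called lower. The part of NK cells, macrophages, mesothelium, epididymis and testis in the T cell values was not tested.

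MTX in KO mice gave 0 calls among the 10 genes, beside 0.0% of all genes tested. At an unadjusted p below 0.05 there was 1, *Cd3e*, beside 7.97% of all genes, and DESeq2 called 0, beside 1.39%. The groups did not overlap for 3 genes, *Cd3d*, *Cd3e* and *Cd3g*, all higher under MTX, beside 11.1% of all genes higher, 9.55% lower and 20.7% either way. The median log2 fold change was 0.83, with 9 of 10 above 0, and -0.01 over all genes. Without KO MTX replicate 3 and flox MTX replicate 2 the 3 CD3 genes had 0.85, 0.68 and 0.58 for *Cd3d*, *Cd3e* and *Cd3g*, and *Cd8b1* -0.09. The KO vehicle and KO MTX libraries held at most 12.7 CPM of epididymis genes.

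Whether MTX acted differently in the 2 genotypes was tested by the interaction. By edgeR, 0 of the 10 genes were called, beside 0.989% of all genes tested (0.898% higher, 0.0909% lower), none passed an unadjusted p of 0.05, beside 15.0% of all genes, and DESeq2 called 0, beside 6.01%. The estimates, MTX effect in KO minus that in flox mice, ran from -1.98 ± 0.98 for *Cd8b1* (adjusted p = 0.369, edgeR) to 0.09 ± 0.57 for *Il1rl1* (adjusted p = 0.954). They were below 0 for 9 genes, with a median of -0.92, and changed sign for *Cd3d*, *Cd3e*, *Cd3g* and *Foxp3* without flox MTX replicate 2. The 6 calls in flox mice and 0 in KO mice are therefore not shown to differ.

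**Figure D3:**
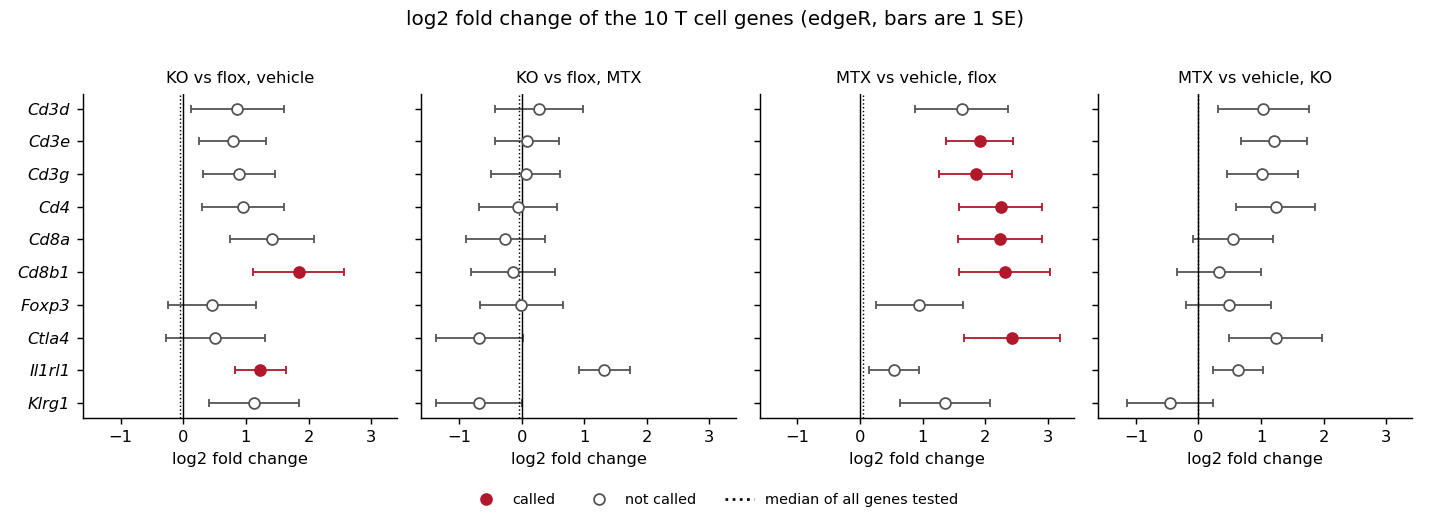
log2 fold change of the 10 genes (x axes) in 4 comparisons (panels), with 1 SE, filled when called, and a dotted line at the median of all genes tested. The 6 calls under MTX in flox mice lie between 1.85 and 2.43, and *Il1rl1* is the one gene clearly right of 0 in both genotype panels, at 1.23 and 1.32.

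Ratios of 2 genes within a library do not depend on the scaling between libraries. They were tested with two-sided exact permutation tests of 3 against 3 libraries, which cannot go below 0.1. The ratio of *Cd8a* to *Cd4* counts was 0.855, 1.00 and 0.614 in flox vehicle and 0.873, 0.784 and 1.71 in KO vehicle libraries. It was 0.717, 0.856 and 0.687 in flox MTX and 1.55, 0.666 and 0.432 in KO MTX libraries. The groups overlapped in all 4 comparisons (exact p from 0.4 to 1), with log2 differences between -0.46 and 0.39, so no shift between the coreceptors was seen beyond the spread between mice.
For *Foxp3* to *Cd3e* the ratios were 0.688, 0.159 and 0.268 in flox vehicle, 0.403, 0.297 and 0.266 in KO vehicle, 0.181, 0.195 and 0.216 in flox MTX and 0.124, 0.172 and 0.266 in KO MTX libraries. The KO groups did not overlap, although their nearest libraries both stood at 0.266, and the log2 difference of MTX and vehicle was -0.83 (exact p = 0.1, the smallest possible). In flox mice it was -0.65 (exact p = 0.4) with overlapping groups. Flox vehicle replicate 1 had the highest *Foxp3* share of the series, with 26 *Foxp3* and 38 *Cd3e* counts. For *Il1rl1* to *Cd3e* the ratios were 2.04, 2.77 and 5.34 in flox vehicle, 7.15, 2.71 and 5.17 in KO vehicle, 2.5, 0.824 and 1.76 in flox MTX and 4.19, 2.60 and 3.30 in KO MTX libraries. The MTX groups did not overlap, with a log2 difference of KO and flox mice of 1.10 (exact p = 0.1), and the other 3 comparisons did (exact p from 0.2 to 0.5).

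**Figure D4:**
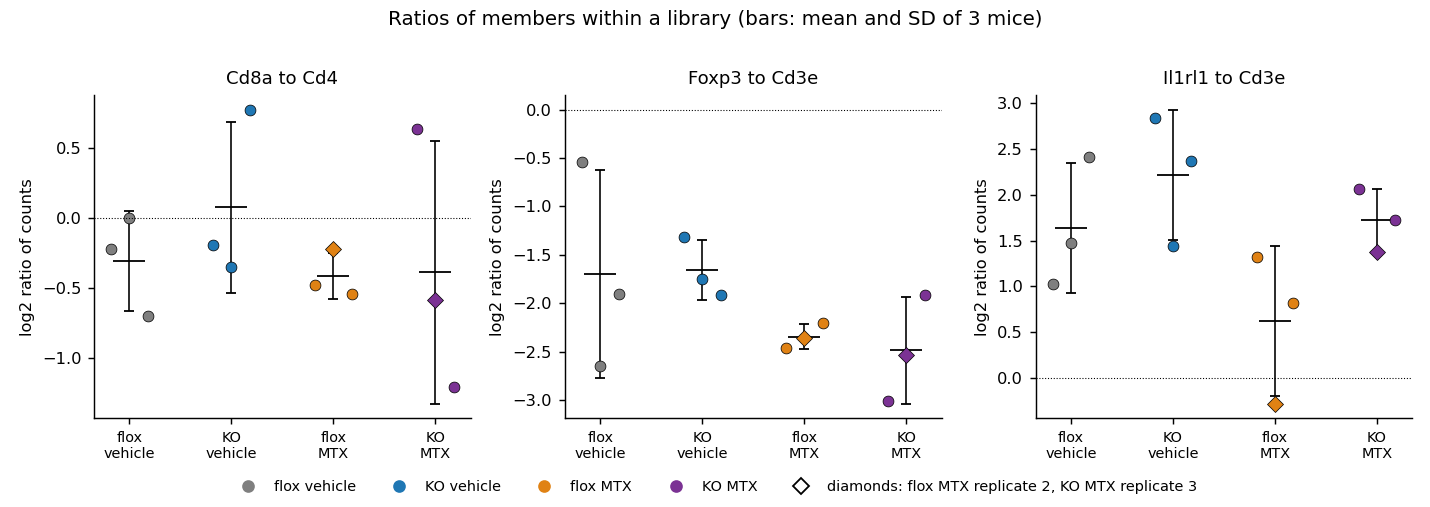
log2 ratios of counts within each library (y axes) for *Cd8a* to *Cd4*, *Foxp3* to *Cd3e* and *Il1rl1* to *Cd3e*, by group, with 1 point per mouse and the mean and SD of 3. The *Foxp3* ratio averages -1.66 in KO vehicle and -2.49 in KO MTX libraries, and the *Il1rl1* ratio 0.62 in flox MTX and 1.72 in KO MTX libraries.

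Across the 12 libraries, whose points share groups and the 2 high MTX libraries, Pearson's r of log2-CPM described which genes varied alike. Within the CD3 chains r was 0.84 to 0.95, between *Cd8a* and *Cd8b1* 0.96, between *Cd4* and *Ctla4* 0.93 and between *Foxp3* and the CD3 chains 0.76 to 0.86. *Il1rl1* had 0.51 to 0.60 with the CD3 chains and 0.38 with *Foxp3*. Without flox MTX replicate 2 and KO MTX replicate 3 (10 libraries) the CD3 chains had 0.73 to 0.94, *Cd8a* with *Cd8b1* 0.94, *Cd4* with *Ctla4* 0.84 and *Foxp3* with the CD3 chains 0.47 to 0.75, and *Klrg1*, at 0.49 to 0.61 with the CD3 chains before, had 0.03 to 0.19. The 10 genes most like the mean of the CD3 chains included *Trbc2* (r = 0.973), *Slfn1*, *Itgal*, *Cd69*, *Il21r*, *Lat*, *Trpm2*, *Pdcd1* and *Il17ra* (0.958), and the 10 had 0.899 to 0.967 without the 2 libraries. *Trbc2* is a constant gene of the beta chain, *Lat* is an adaptor of receptor signaling, and *Itgal* encodes an integrin of leukocytes.
Among the 5 most like *Foxp3* were *Gimap7* (0.904), *Snx33*, *Gpr18* and *Cd300lf* (0.888), and no gene reached the likeness found for the CD3 chains. Among the 5 most like *Ctla4* were *H2-Eb2* (0.965), *Gata5*, *Tnfsf8* and *P2ry10* (0.942). Most like *Il1rl1* were *Actr2* (0.965), *Nlrp1a*, *Dr1*, *Eif5a2* and *Mcm5* (0.958), none of them a mast cell or T cell marker of the lists. For *Klrg1*, with 3 to 30 counts a library, they were *Gm23346* (0.930), *Gm37718*, *Prg2*, *Bicc1* and *Gxylt2* (0.878).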

How the data were processed

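The deposited values are raw read counts per gene. The authors isolated RNA with Trizol, trimmed reads (Trimmomatic 0.36), aligned them to the mouse genome mm10 (GRCm38) with STAR 2.5.2b and counted reads on Ensembl genes with featureCounts of Subread 1.5.2. Library labels name polyA RNA and the study's methods name ribodepletion, and the strand setting is not given in the sources used here. The 10 genes, and the gene and marker lists, were chosen with earlier results of these data known.

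Samples were grouped by their labels, 3 mice in each group. Genes were filtered with filterByExpr, scaled with TMM and fitted with edgeR 4.0.16 (quasi-likelihood, R 4.3.3) on all 12 libraries with 1 mean per group, a common dispersion of 0.100 and 8 residual degrees of freedom. Contrasts were adjusted over 18702 genes (Benjamini-Hochberg), and the same test was tested on simulated counts. SE is the log2 fold change divided by the square root of F. The log2 ratios used a pseudocount of 0.5 and two-sided exact permutation tests, with 12 ratio comparisons not adjusted, since the smallest p is 0.1. Likeness was Pearson's r of log2-CPM (prior count 2). Alternatives were DESeq2 1.42.0, other scalings, filters and fold limits, each library left out, the 6 libraries of a comparison alone and a replicate block. Leaving out both high MTX libraries, or flox vehicle replicates 1 and 3, was chosen after seeing the data, as were the counts in gene lists with libraries left out.

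From each list other than markers, up to 4 called genes with the largest change were named per comparison, with the 10 genes most like the CD3 mean and the 5 most like *Foxp3*, *Ctla4*, *Il1rl1* and *Klrg1*. *Pparg*, *Gpr83*, *Il17a*, *Il5*, *Il13*, *Cxcl13* and *Glycam1* were named after their values were seen. Some genes that this rule names are not reported here. The most similar pair of libraries in a group had a chi-square of 12.9 per degree of freedom, so none was a repeat deposit. Same-numbered mice did not deviate together (median r 0.0353 over 12 pairs, from -0.273 to 0.254). With so few mice a group, this cannot exclude that the numbers pair mice by litter or cage. Motifs were searched in RefSeq promoter windows (GRCm38.p6).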

Additional observations from a re-analysis of the deposited data

How the results depend on the processing

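Among the alternatives, 1015 log2 values kept their direction and their side of the threshold, 44 kept only the direction and lost the threshold, 14 gained it and 49 changed direction. These include the log2 ratios, which have no threshold and were judged by direction alone. Most of the 1015 belong to differences that were not called. All 44 losses fell on the reported calls, each of which was lost in 4 to 6 alternatives and kept in 14 to 17. Counts of called genes stayed within 1.5 times the reported one in 95 cases and moved in 19. Between KO and flox mice under vehicle 13 stayed and 10 moved, and for MTX in flox mice 17 stayed and 6 moved. The others had a reported count of 0. There, 20 stayed for the genotypes under MTX, 23 for MTX in KO mice and 22 for the interaction. The causes of the moves were not tested.

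Between KO and flox mice under vehicle, 2 calls became 1 with a log2 limit of 1.5 (beside 16.2% of all genes) or with a minimum of 10 counts per library (28.4%). They became 5 without both high MTX libraries (35.1%) and 0 to 3 with each library left out (23.7% to 35.0%). Under MTX, 0 calls became 1 (*Il1rl1*) with DESeq2, beside 16.6% of all genes, or with at least 10 counts, beside 10.6%. They became 0 to 1 with each library left out, beside 0.0% to 20.8%. For MTX in flox mice, 6 calls became 1 with the 6 libraries alone (log2 fold changes of the 6 genes 1.84 to 2.41), beside 12.2% of all genes. They became 1 without both high MTX libraries (0.85 to 1.67), beside 24.2%. With each library left out they became 0 to 7, beside 11.7% to 30.9%. Without both epididymis-rich libraries the 6 log2 fold changes were 1.84 to 2.74. Resting on 1 flox vehicle library, they do not show that the calls hold. With the replicate block, which pairs same-numbered mice, there were 0 calls between genotypes under vehicle, beside 27.2% of all genes. For MTX in flox mice there was 1, beside 14.8%. The *Foxp3* to *Cd3e* ratio then differed by -0.016 between genotypes under vehicle. Whether a shared number marks a shared litter or cage is not stated in the sources used here. For MTX in KO mice and the interaction the count was 0 under every alternative run.

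Directions that turned in the genotype comparison under MTX were *Cd3e* at -0.043 (block), *Cd4* at 0.068 (library size alone) and 0.29 (without both high libraries), *Cd8a* at 0.35 and *Cd8b1* at 0.45 (without both), and *Foxp3* at 0.0044 (DESeq2), 0.12 (library size alone), 0.19 (block) and 0.42 (without both). *Il1rl1* turned to -0.18 for MTX in flox mice without the epididymis-rich libraries, and *Cd8b1* to -0.093 for MTX in KO mice without the high libraries. In the interaction, *Cd3d* turned to 0.34 and *Il1rl1* to -0.0753 without the high libraries, and *Il1rl1* to -0.13 with the block. With each library left out, the genotype difference under MTX ran from -0.16 to 1.40 for *Cd3d*, -0.44 to 0.92 for *Cd3e*, -0.38 to 1.08 for *Cd3g*, -0.56 to 0.80 for *Cd4*, -0.70 to 0.79 for *Cd8a*, -0.56 to 0.87 for *Cd8b1*, -0.43 to 0.84 for *Foxp3*, -1.34 to 0.094 for *Ctla4* and -1.13 to 0.40 for *Klrg1*. The MTX effect in KO mice ran from -0.093 to 0.68 for *Cd8b1*. The interaction ran from -1.59 to 0.53 for *Cd3d*, -1.24 to 0.12 for *Cd3e*, -1.28 to 0.17 for *Cd3g*, -1.39 to 0.37 for *Foxp3* and -0.48 to 0.37 for *Il1rl1*. The *Foxp3* to *Cd3e* ratio ran from -0.44 to 0.62 between genotypes under vehicle and from -0.43 to 0.12 under MTX, and the *Cd8a* to *Cd4* ratio from -0.48 to 0.44 between genotypes under MTX and from -0.30 to 0.049 for MTX in flox mice.

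With 3 mice a group and as few as 3 counts for *Klrg1*, 4 for *Ctla4* and 5 for *Foxp3*, differences in these genes are the least certain. Library-size scaling moved the median of all genes to -0.15 for MTX in flox mice and to 0.12 for the genotypes under MTX.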
